A study of Mus musculus with 6 samples.

Results

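The S100 genes code for small calcium-binding proteins, and the 10 described here (*S100a1*, *S100a3*, *S100a4*, *S100a6*, *S100a8*, *S100a9*, *S100a10*, *S100a11*, *S100a13* and *S100a16*) were taken by name from the transcript spots of 6 mouse arrays that carried 37074 gene names. They were covered by 12 probes, since *S100a10* and *S100a16* had a pair each. The arrays held RNA of osteoclasts grown from bone marrow cells with RANKL, the cytokine that drives osteoclast formation, for 5 days. Of these, 3 came from Ano1fl/fl mice, whose *Ano1* gene is flanked by loxP sites, and 3 from Ctsk-Cre;Ano1fl/fl littermates, which carry the same floxed alleles and in addition a Cre recombinase driven by the cathepsin K gene (*Ctsk*). *Ano1* codes for a calcium-activated chloride channel, and the arrays compare osteoclasts meant to lack it with osteoclasts that keep it. Cre made this way acts only in cells that have switched on *Ctsk*, so cells of the culture that have not done so keep the channel gene.

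An S100 protein carries a pair of EF-hand loops, folds into a dimer, and on binding calcium exposes a surface that grips target proteins such as annexins and myosins. The family has no enzymatic activity, and it is known for acting both inside the cell, on membranes and the cytoskeleton, and outside it, where some members signal through the receptors RAGE (*Ager*) and TLR4. In myeloid cells S100A8 and S100A9 are among the most abundant cytosolic proteins of neutrophils and monocytes. Most of the genes sit together in a cluster on a single mouse chromosome.

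All 12 probes were well above background, as marked by the scanner software, on each of the 6 arrays, none was saturated, and all 12 carried a symbol that is still current in RefSeq. On an array, 33480 to 34951 of 59305 transcript spots were well above background, and arrays correlated at 0.994 to 0.997 within a group and 0.944 to 0.950 between groups. No array had the single *Ano1* probe well above background (processed signals of 3.22 to 3.91), so the targeted gene does not check the labels and directions below follow the labels alone. *Ctsk*, whose control region drives Cre, gave processed signals of 16400 to 17000 on the Ano1fl/fl arrays and 125000 to 129000 on the Ctsk-Cre;Ano1fl/fl arrays. Over all 20645 genes tested, 23.0% were higher and 28.5% lower in the Ctsk-Cre;Ano1fl/fl group. Of 14 osteoclast marker genes, 13 were higher and 1 was lower in that group, and their summed normalized signal was 223000 to 241000 against 624000 to 706000. This is opposite to the direction that the study describes for osteoclast genes in such cultures. Whether the group labels were exchanged was not tested, and an exchange would turn every sign below.

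Below, a difference is the mean log2 signal of the Ctsk-Cre;Ano1fl/fl arrays minus that of the Ano1fl/fl arrays after quantile normalization, so a negative value is a lower signal in the Ctsk-Cre;Ano1fl/fl group. It is given with the standard error (SE) and the Benjamini-Hochberg adjusted p of limma, fitted on 31848 probes, and a gene was called at an adjusted p under 0.05. A gene was counted by its brightest probe. The signal of a probe depends on its own sequence, so levels are compared between groups and not between genes.

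By these probes, 7 of the 10 S100 genes fell in the Ctsk-Cre;Ano1fl/fl group, none was called higher, and 3 were not called. Over all 20645 genes tested, 28.5% were called lower and 23.0% higher. The 10 genes had a median difference of -0.56, and all genes tested had a median of -0.06. The 10 were chosen with earlier results of these data known, so the contrast with all genes is not independent of that choice. The groups of arrays did not overlap for 7 of the 10, where 64.0% of all genes tested had groups that did not overlap. Of the 7, *S100a4*, *S100a6* and *S100a10* fell by more than 2-fold, and 7.19% of all genes tested were called lower by that much. At an unadjusted p under 0.05 limma called 0 of the 10 higher, beside 5266 of all 20645 genes. The methods' t-test at that threshold also called 0 of the 10 higher, beside 5193 of all genes. The count takes *S100a16* by the brighter of its 2 probes, and its dimmer probe rose.

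**Figure D1:**
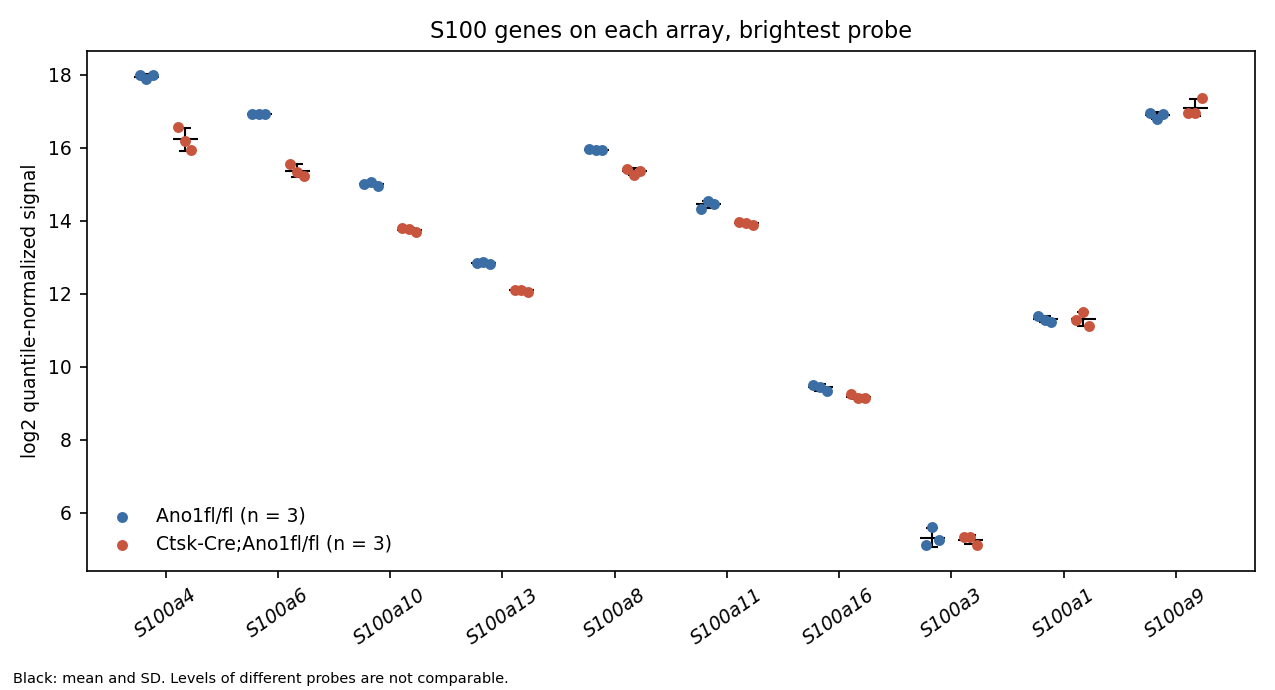
Each point is the log2 quantile-normalized signal of 1 array at the brightest probe of an S100 gene, blue for the 3 Ano1fl/fl and red for the 3 Ctsk-Cre;Ano1fl/fl arrays, with the mean and SD in black. For *S100a4* the blue points lie between 17.87 and 17.98 and the red points between 15.94 and 16.57, whereas for *S100a1*, *S100a3* and *S100a9* the colours overlap.

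The bases just upstream of the start are shown for 4 genes, since *S100a4* and *S100a6*, close together in the cluster, had the lowest differences, and *S100a8* and *S100a9* code for proteins that bind each other but only *S100a8* was called. They are the 250 bases before the start listed by RefSeq in GRCm38.p6, printed 5′ to 3′ on the strand of the gene. Capitals mark letters searched for on both strands: TATAAA (found in core promoters), GAGGAA (core of PU.1 sites), TTGCNNAA (C/EBP) and TGANTCA (AP-1).
S100a4 (chr3:90603520-90603769, plus strand): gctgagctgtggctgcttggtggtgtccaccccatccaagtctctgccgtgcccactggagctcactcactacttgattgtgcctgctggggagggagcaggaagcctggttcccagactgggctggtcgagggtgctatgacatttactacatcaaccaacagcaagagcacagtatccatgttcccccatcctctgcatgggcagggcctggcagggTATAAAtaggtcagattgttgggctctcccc
S100a6 (chr3:90612644-90612893, plus strand): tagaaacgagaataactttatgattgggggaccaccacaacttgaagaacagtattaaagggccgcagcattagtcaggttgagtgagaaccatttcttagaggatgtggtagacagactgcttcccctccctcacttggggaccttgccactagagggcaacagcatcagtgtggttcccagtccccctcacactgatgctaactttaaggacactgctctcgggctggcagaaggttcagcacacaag
S100a8 (chr3:90668821-90669070, plus strand): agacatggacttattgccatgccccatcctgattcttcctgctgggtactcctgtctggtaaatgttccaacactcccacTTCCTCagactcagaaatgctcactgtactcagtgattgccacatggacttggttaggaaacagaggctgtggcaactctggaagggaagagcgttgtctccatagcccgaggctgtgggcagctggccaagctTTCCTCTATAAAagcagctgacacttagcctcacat
S100a9 (chr3:90695722-90695971, minus strand): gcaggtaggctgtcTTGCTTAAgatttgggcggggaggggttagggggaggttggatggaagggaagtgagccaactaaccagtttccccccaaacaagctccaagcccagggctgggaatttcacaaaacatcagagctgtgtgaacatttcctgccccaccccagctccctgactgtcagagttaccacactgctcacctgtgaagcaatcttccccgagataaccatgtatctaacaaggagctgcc
The TATAAA letters stood 31 to 26 bases before the start of *S100a4* and 30 to 25 bases before that of *S100a8*, and 12.4% of 32851 upstream windows of this length held them. They also stood 52 to 47 bases before a listed start of *S100a3*, which was not called. In *S100a8* they directly follow a PU.1 core on the other strand, and a further core lies 170 to 165 bases upstream. The core was in 23.3% of the windows, and among the 9 genes with an upstream sequence in the table it was also found at *S100a3*, *S100a11* and *S100a16*. The window of *S100a9* held a C/EBP match (9.56% of windows), 236 to 229 bases before the start, and no TATAAA. That of *S100a6* held none of the 4 motifs. Among the 9 genes, AP-1 letters (6.75% of windows) were found at *S100a11*, which had them at 38 to 32 and at 136 to 130 bases upstream, and at *S100a16*. These are matches of letters, and no binding was measured.

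*S100a4*, also known as metastasin, codes for a protein that binds non-muscle myosin heavy chain and loosens its filaments. Its probe (A_51_P105078; mm9 chromosome 3, 90409842 to 90409902) gave processed signals of 262000, 259000 and 270000 on the Ano1fl/fl arrays and of 95200, 60400 and 58400 on the Ctsk-Cre;Ano1fl/fl arrays. All 3 Ctsk-Cre;Ano1fl/fl arrays lay below all controls, and replicate 1 was the highest of them. After normalization the means were 17.95 ± 0.06 and 16.23 ± 0.32 (SD, n = 3 each), a difference of -1.72 (SE 0.16, 3.29-fold lower, limma adjusted p = 3.67e-04). It was the lowest of the 10 differences and stood at the percentile 2.1 of the differences of all genes tested.

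*S100a6*, calcyclin, lies close to *S100a4* and codes for a protein that binds annexins and the calcyclin-binding protein CACYBP. Signals at its probe (A_51_P281089, 90418160 to 90418219) were 126000, 143000 and 140000 in Ano1fl/fl and 46800, 34200 and 35200 in Ctsk-Cre;Ano1fl/fl osteoclasts. The groups did not overlap, and again replicate 1 was the highest of the Ctsk-Cre;Ano1fl/fl arrays. The normalized means of 16.93 ± 0.01 and 15.37 ± 0.17 (SD, n = 3 each) differed by -1.55 (SE 0.10, 2.94-fold lower, limma adjusted p = 9.71e-05).

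*S100a10*, or p11, forms a tetramer with annexin A2 at the cell surface, where the complex binds plasminogen and its activator, and it is the family member whose loops have lost calcium binding. The brighter of its probes (A_51_P342871, 93368437 to 93368496) gave 32100, 39400 and 37200 in Ano1fl/fl and 13900, 11400 and 12400 in Ctsk-Cre;Ano1fl/fl osteoclasts. The dimmer one (A_66_P137316, 93368276 to 93368335), which starts 161 bases before it, gave 12000, 14800 and 14500 against 5550, 4550 and 4710. At both probes each Ctsk-Cre;Ano1fl/fl array was below each control. The difference was -1.25 at the first (SE 0.08, 2.38-fold lower, limma adjusted p = 6.83e-05) and -1.21 at the second (SE 0.08, 2.31-fold lower, adjusted p = 9.26e-05), so the pair gave the same direction and a similar size.

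*S100a11*, calgizzarin, codes for a partner of annexin A1 and lies near *S100a10*, some way from the rest of the cluster. Its signals (A_55_P2065991, 93330022 to 93330081) were 20000, 27500 and 26900 in the controls and 15600, 12900 and 14000 in the Ctsk-Cre;Ano1fl/fl group. The groups did not overlap, although the lowest control was close to the highest of the other group before normalization. The normalized means were 14.44 ± 0.11 and 13.92 ± 0.05 (SD, n = 3 each), and the difference of -0.52 (SE 0.09, 1.44-fold lower, limma adjusted p = 0.00305) passed the threshold.

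*S100a8* and *S100a9* code for the calgranulins, which join into calprotectin, a chelator of zinc and manganese and a ligand of TLR4 and RAGE. *S100a8* (A_51_P256827, 90473778 to 90473837) gave 65100, 72800 and 72500 in Ano1fl/fl and 42300, 32500 and 39700 in Ctsk-Cre;Ano1fl/fl osteoclasts, with no overlap. The normalized means were 15.94 ± 0.02 and 15.35 ± 0.09 (SD, n = 3 each), a difference of -0.60 (SE 0.08, 1.51-fold lower, limma adjusted p = 0.00131).

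*S100a9* (A_55_P1998471, minus strand, 90496573 to 90496632) gave 129000, 128000 and 140000 in the controls and 124000, 109000 and 159000 in the Ctsk-Cre;Ano1fl/fl group. The groups overlapped, and replicate 3 of the Ctsk-Cre;Ano1fl/fl arrays was the highest of all 6. The difference of 0.20 (SE 0.13, limma adjusted p = 0.25) was not called, with a 95% interval of -0.12 to 0.52. That interval does not reach the interval for *S100a8*, -0.79 to -0.41, but the difference between the genes was not tested.

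Both calgranulins are carried at high level by neutrophils and monocytes, so the markers of these cells stand beside them. Over all genes tested, 23.0% were called higher and 28.5% lower. Of 18 neutrophil marker genes, 4 were higher, 11 were lower and 3 were not called, with a median difference of -1.07. Their summed normalized signal was 274000 to 309000 in the Ano1fl/fl and 194000 to 210000 in the Ctsk-Cre;Ano1fl/fl group. All 18 were above background on all 6 arrays. Of 15 monocyte and macrophage genes, 3 were higher and 7 lower, with a median difference of -0.13 and a summed signal of 713000 to 723000 against 750000 to 824000. Of 19 stromal genes, a cell type that also carries *S100a4*, *S100a6*, *S100a10* and *S100a11*, 16 were higher and 2 lower, with a median difference of 3.85. Their sums were 23400 to 25700 against 92000 to 136000. Some of these sums rest on 1 gene. Without the gene that changed most in signal, picked after the values were seen, the monocyte and macrophage sum was lower in the Ctsk-Cre;Ano1fl/fl group (694000 to 705000 against 617000 to 655000 without *Marco*), and the neutrophil sums came closer (206000 to 241000 against 190000 to 202000 without *Mpo*). The osteoclast and stromal sums stayed higher, with ratios of group means of 2.38 without *Ctsk* and 3.24 without *Sparc*. In RNA from whole cultures, fewer cells of a type and less RNA per cell cannot be told apart, and the part of these cell types in the S100 differences was not tested.

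**Figure D2:**
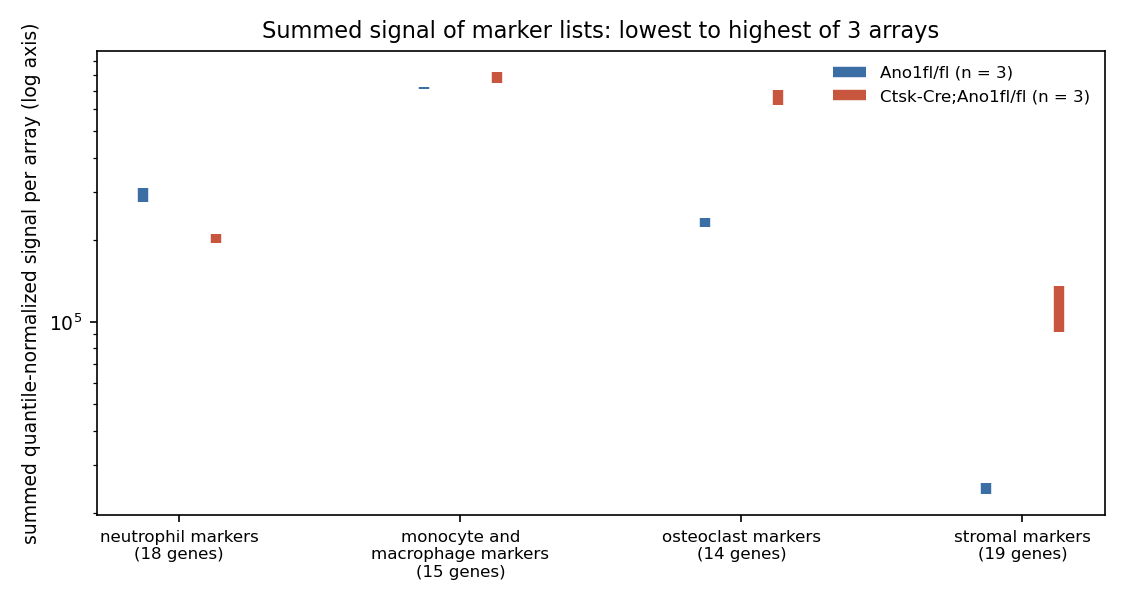
Bars span the lowest to the highest of 3 arrays per group for the normalized signal summed over each marker list, on a log axis. The neutrophil sum is lower on the Ctsk-Cre;Ano1fl/fl arrays, with a ratio of group means of 0.693, and the osteoclast and stromal sums are higher, with ratios of 2.81 and 4.53.

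*S100a1* and *S100a13* lie head to head, with 104 bases between their listed starts in GRCm38.p6, and run in opposite directions. *S100a13* codes for a protein that takes part in the release of FGF1 and interleukin 1 alpha, which lack a signal peptide. Its probe (A_51_P269852) crosses an intron, so that its 60 bases span mm9 positions 90319950 to 90328319. It gave 7000, 8720 and 8720 in Ano1fl/fl and 4450, 3560 and 3960 in Ctsk-Cre;Ano1fl/fl osteoclasts, with no overlap. The difference was -0.76 (SE 0.07, 1.69-fold lower, limma adjusted p = 3.26e-04).

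*S100a1*, known from muscle for acting on the ryanodine receptor and the calcium pump SERCA, was not called, and its difference from *S100a13* was not tested. Its signals (A_55_P1979645, minus strand, 90315191 to 90315250) were 2520, 2820 and 2830 in the controls and 2580, 2350 and 2110 in the Ctsk-Cre;Ano1fl/fl group, and overlapped. After normalization both means were 11.30, with an SD of 0.07 and 0.19 (n = 3 each), and the difference was 0.00 (SE 0.12, limma adjusted p = 0.98, 95% interval -0.27 to 0.28). Its sign changed with the scaling of the arrays (-0.04 with 75th percentile scaling), which moved the median of all genes from -0.06 to -0.12 as well, and relative to that median it stayed positive, at 0.06 and 0.08.

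*S100a3*, known from the cuticle cells of the hair, was near the floor. Its probe (A_51_P468456, 90406396 to 90406455) gave 32.5, 53.0 and 44.5 in Ano1fl/fl and 41.8, 34.1 and 32.2 in Ctsk-Cre;Ano1fl/fl osteoclasts, where the lowest signal above background on an array was 15.0 to 18.4. The groups overlapped and the difference of -0.05 (SE 0.15, limma adjusted p = 0.785, 95% interval -0.41 to 0.30) was not called.

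*S100a16* is a widely expressed member, and its 2 probes gave opposite answers. They read the same transcript from base 516 (A_55_P2148912; mm9 90346529 to 90346588) and from base 862 (A_66_P114627; 90346875 to 90346934), 346 bases apart. The first 28 of the 60 bases of each probe are given, since the direction read for this gene turns on them.
A_55_P2148912: ttcatgtcctgacccatgtcctgccagt
A_66_P114627: ctcccagctcctgactgtggcagctgtg
The probes share no overlap in position, and 43.3% of the bases of the first and 55.0% of those of the second were G or C. The first gave 681, 769 and 758 in Ano1fl/fl and 634, 467 and 541 in Ctsk-Cre;Ano1fl/fl osteoclasts. Its groups did not overlap, and the difference of -0.25 (SE 0.08, 1.19-fold lower, limma adjusted p = 0.039) was the smallest of the 7 called. The call was lost with a replicate block (adjusted p = 0.0731), and on leaving out any array but Ano1fl/fl replicate 3 (adjusted p = 0.0531 to 0.108).

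The second *S100a16* probe gave 35.1, 30.0 and 33.8 in the controls and 408, 272 and 261 in the Ctsk-Cre;Ano1fl/fl group. All 3 Ctsk-Cre;Ano1fl/fl arrays were far above all controls, and the difference was 3.42 (SE 0.17, limma adjusted p = 3.41e-05), the largest of the 12 in size. The control signals were near the floor, and the size differed between signal measures, with 2.07 after normexp correction (offset 50) and 2.51 with the median intensities of the series matrix, while the probe was called higher in all 14 alternatives run on it. With the mean of both probes *S100a16* was called higher, by 1.59 (limma adjusted p = 1.26e-04). The direction for this gene therefore rests on which probe is read, and which of them follows the messenger was not tested. Among the 10 genes only *S100a10* also had a second probe, and there the 2 were alike.

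**Figure D3:**
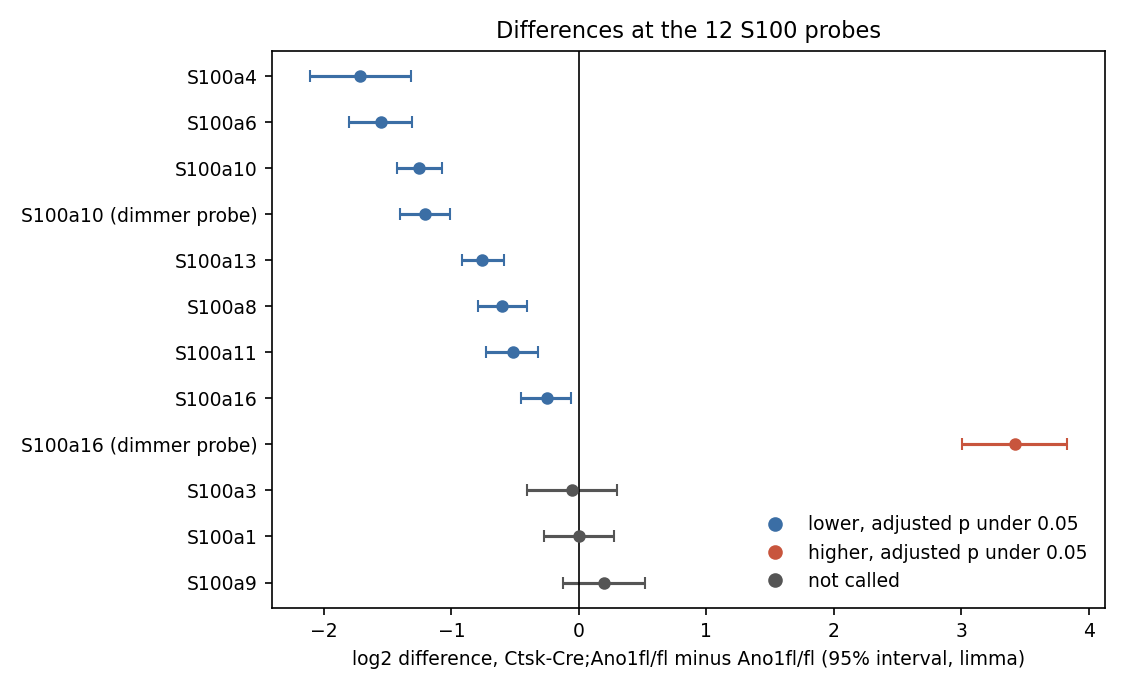
Points are log2 differences of the 12 probes, Ctsk-Cre;Ano1fl/fl minus Ano1fl/fl, with 95% intervals from limma, blue for called lower, red for called higher and grey for not called. Of the 12 intervals, those of *S100a1*, *S100a3* and *S100a9* cross 0, and the dimmer *S100a16* probe at 3.42 stands alone on the right.

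**Figure D4:**
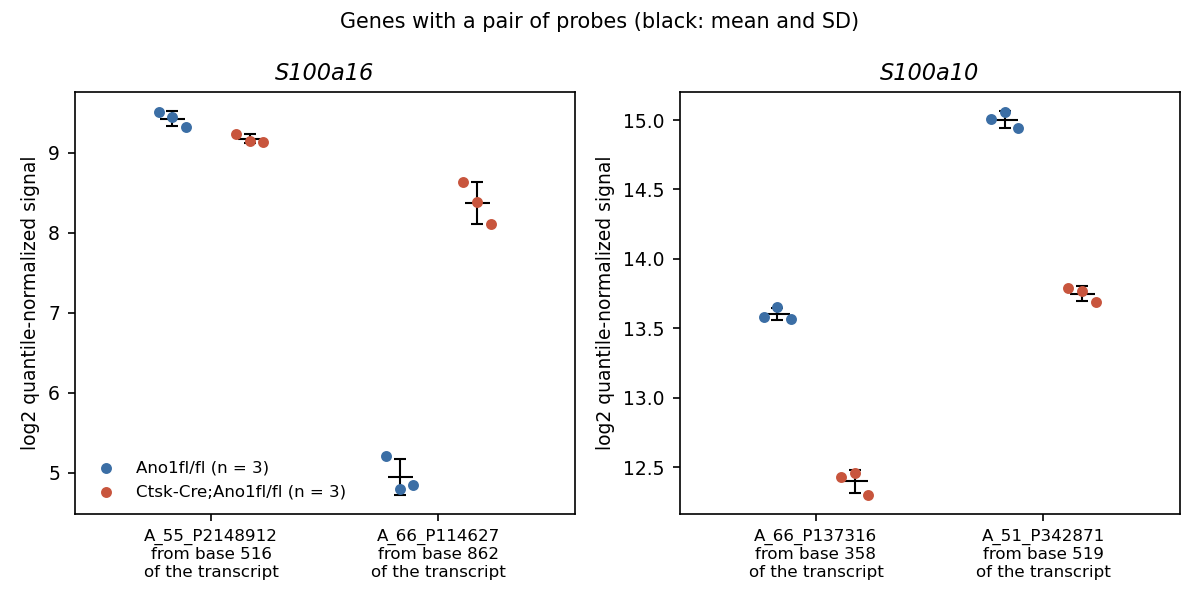
Log2 normalized signal on each array at both probes of *S100a16* (left) and *S100a10* (right), ordered by position in the transcript, with the mean and SD in black. The groups at *S100a16* part by -0.25 at base 516 and by 3.42 at base 862 (2.07 with normexp correction), and those at *S100a10* by -1.21 and -1.25.

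Of 7 further genes of the family name on the array, 6 missed the background filter in both groups, among them *S100a5* and *S100a7a*, which lie inside the cluster. *S100b* was above background on 1 Ctsk-Cre;Ano1fl/fl array alone. *S100pbp*, which codes for a nuclear protein that binds S100P and is not itself an S100 protein, rose from 8.54 to 9.47, a difference of 0.93 (SE 0.14, limma adjusted p = 0.00203). Of its dimmer probes 1 rose by 1.09 (adjusted p = 5.95e-04), and the other two, at -0.45 and -0.25, were not called. *S100a2*, which was not on the list and was looked up after the values were seen, was tested and not called, at -0.48 (adjusted p = 0.146).

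The annexins bind membranes when calcium rises and are the best known partners of S100A6, S100A10 and S100A11. Of 12 annexin genes, 10 were tested, of which 3 were higher, 2 lower and 5 not called, with a median difference of -0.03. These shares are near those of all genes tested (23.0% higher and 28.5% lower). *Anxa2*, the partner of *S100a10*, stood at 16.81, 17.02 and 16.94 in Ano1fl/fl and 16.83, 16.81 and 16.67 in Ctsk-Cre;Ano1fl/fl osteoclasts on the log2 scale. Its groups overlapped, and the difference of -0.15 (SE 0.09, limma adjusted p = 0.2) was not called, nor were those of its dimmer probes, 0.05 and -0.52.

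*Anxa1*, the partner of *S100a11*, stood at 16.49, 16.75 and 16.73 against 16.23, 16.31 and 16.14, and fell by 0.43 (SE 0.10, limma adjusted p = 0.0129). Its dimmer probes differed among themselves, with 1 not called at 0.14 (adjusted p = 0.252) and 1 lower at -1.16 (adjusted p = 0.00121). *Anxa9* fell by 0.81 (adjusted p = 3.64e-04), and its dimmer probes fell by 0.81 and 0.65. *Anxa3* rose by 0.50 (adjusted p = 0.00856). *Anxa6* rose by 0.28 at its brightest probe (adjusted p = 0.0357), but its other tested probe fell by 0.63 (adjusted p = 0.00333). *Anxa8* was not well above background in the Ano1fl/fl group and was at least 1.82-fold higher in the Ctsk-Cre;Ano1fl/fl group (adjusted p = 4.19e-04).

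The list of receptors and other binding partners held 22 genes, of which 17 were tested, 6 were higher, 2 lower and 9 not called, with a median difference of 0.19, beside the same 23.0% and 28.5% of all genes. *Ahnak*, a giant scaffold that docks on the S100A10 and annexin A2 complex, read 14.93, 14.84 and 14.86 in the controls and 13.73, 13.68 and 13.43 in the Ctsk-Cre;Ano1fl/fl group on the log2 scale. It fell by 1.27 (SE 0.10, limma adjusted p = 1.89e-04), and its dimmer probes fell as well, by 1.80 and 0.80. Of the 3 parts of that complex, *S100a10* and *Ahnak* thus fell and *Anxa2* was not called. *Plat*, the tissue plasminogen activator that the complex binds, was not well above background in the control group and was at least 1.73-fold higher (adjusted p = 0.0061).

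*Ager*, coding for the receptor RAGE, fell from 11.89 to 11.44, a difference of -0.45 (SE 0.09, limma adjusted p = 0.00557), and 3 of its dimmer probes were also called lower. *Tlr4*, the other receptor of calprotectin, was not called at its brightest probe (chromosome 4 of mm9, 66591199 to 66591258), with 0.09 (SE 0.14, adjusted p = 0.611). That probe was designed on another transcript than the dimmer ones and lies well beyond them (between 66500344 and 66503782), and both of those fell, with -0.90 (adjusted p = 0.00155) and -1.30 (adjusted p = 0.00293). *Bsg*, the S100A9 receptor basigin, rose by 0.50 (adjusted p = 0.0199). *Cybb*, the NADPH oxidase subunit to whose complex calprotectin brings arachidonic acid, also rose by 0.50 (adjusted p = 0.0389).

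Inside the cell, *Myh9*, the myosin heavy chain bound by S100A4, gave a difference of 0.19 (limma adjusted p = 0.0905; of its 3 dimmer probes, 1 fell by 0.42), and *Cacybp*, the partner of S100A6, gave 0.11 (adjusted p = 0.223). Neither was called, while the genes of the S100 proteins that bind them fell. For *S100a1*, which was not called, the targets *Ryr1* and *Atp2a2* rose by 0.67 (adjusted p = 0.0135) and 0.46 (adjusted p = 0.00429). *Il1a*, a cargo of S100A13, was not well above background in the control group and read 8.73, 8.90 and 8.65 on the Ctsk-Cre;Ano1fl/fl arrays, at least 27.7-fold higher (adjusted p = 3.18e-06). *Fgf1*, the other cargo, missed the background filter at each of its probes and was not tested.

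**Figure D5:**
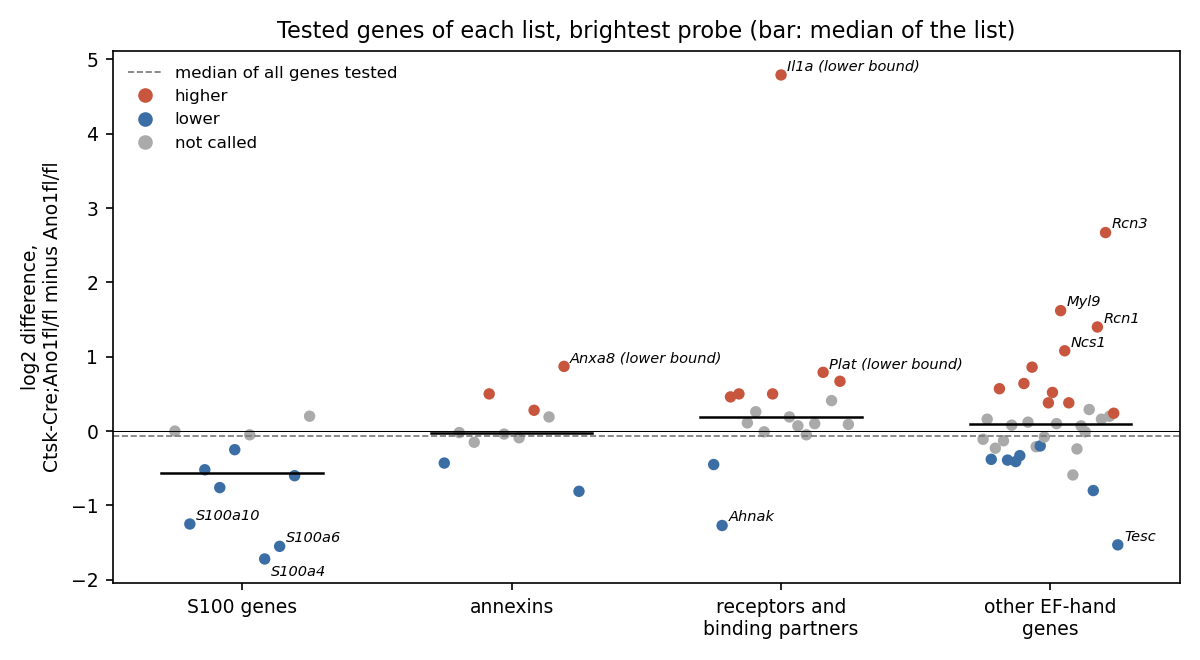
Each point is the log2 difference of a tested gene at its brightest probe, by list, with the median of the list as a black bar and the median of all genes tested (-0.06) as a dashed line. The 3 genes below background on all control arrays are drawn at their lower bound (*Il1a* 4.79, *Anxa8* 0.87, *Plat* 0.79), and the S100 list, with a median of -0.56, holds no point called higher.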

How the data were processed

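RNA of osteoclasts from 3 Ano1fl/fl and 3 Ctsk-Cre;Ano1fl/fl mice was measured on 6 one-colour (Cy3) Agilent arrays lying on 1 slide. The deposited scanner files hold intensity values per spot, which the authors' Feature Extraction software (10.7.1.1, per the submitters' processing notes) corrected for background and trends within the array but did not normalize between arrays. The deposited series matrix holds the spots' median intensity (largest difference 0). The log2 processed signals were quantile normalized, the algorithm named in the study's methods. Spots of a probe were averaged without outlier spots, which left 14 probes with no value on some array, and these were dropped. The background filter kept a probe if, on each array of the Ano1fl/fl or of the Ctsk-Cre;Ano1fl/fl group, at least 0.5 of its spots were well above background. It kept 31848 of 56591 probes, for 20645 genes. The groups were compared with limma 3.58.1 in R 4.3.3, without a replicate block, and the Benjamini-Hochberg adjustment covered all tested probes. The script was tested on simulated data. Reading of tables used the R package data.table in version 1.17.8 and, in Python 3.11.15, pandas 2.3.3. Plots used matplotlib 3.10.9.

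The members and gene lists were chosen with earlier results of these data known. Named were all 10 S100 genes at each probe, other family genes, known partners, and the 3 largest rises and 3 largest falls of each partner list among genes called whose groups do not overlap and whose brighter group passes the filter. Marker lists were read as counts, as sums with and without the gene that changed most and, except for the osteoclast list, as median differences. *Ctsk* was also read by its signals. The fold of a gene whose dimmer group has no array above background is a lower bound, set against each array's lowest signal above background. Positions are mm9, from the array files, and upstream sequences are RefSeq's (GRCm38.p6, 9 of 10 genes listed). The labels do not say whether equal replicate numbers mark paired samples, and the main comparison used no pairing. Each array is 1 mouse per the study's methods, and the number of arrays limits the precision, since 3 against 3 cannot give an exact two-sided permutation p under 0.1. Alternatives changed 1 choice at a time and were scaling, background correction, the series matrix, the filter, the rule for probes, the test, a replicate block, a fold of 2 and leaving out each array.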

Additional observations from a re-analysis of the deposited data

How the results depend on the processing

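*S100a4*, *S100a6*, *S100a8*, *S100a10*, *S100a11* and *S100a13* kept their direction and passed the threshold in all 16 alternatives, with ranges of -1.88 to -1.57, -1.65 to -1.48, -0.70 to -0.55, -1.34 to -1.22, -0.61 to -0.47 and -0.85 to -0.74. *S100a9* (0.07 to 0.27) never passed it, nor did *S100a1* and *S100a3*. The sign of *S100a1* turned with 75th percentile scaling (-0.04) and normexp background correction (-0.01), and with 1 array left out it was -0.10 to 0.10. *S100a3* was -0.16 to 0.09 in that setting. The median of all genes was -0.12 with 75th percentile scaling, -0.04 with normexp and -0.05 with the series matrix, against -0.06. *S100a16* turned to 1.59 with the mean of all probes, which made 1 member called higher, and fell short of the threshold with the replicate block (-0.25, adjusted p = 0.0731) and on leaving out any array but Ano1fl/fl replicate 3 (-0.30 to -0.22 over all 6 runs, -0.30 being the run that kept the call). The dimmer *S100a16* probe ranged from 2.07 (normexp) to 3.55. Same-numbered arrays deviated from their group means with correlations of -0.02, -0.08 and -0.09, and the replicate block changed no other call among the 10 members, while 2 annexins and 10 EF-hand genes were then higher and 6 EF-hand genes lower. Without a filter on dim probes 2 other S100 genes were called higher and 1 lower. Asking for more than 2-fold left 3 members lower, 0 other S100 genes higher, 1 annexin higher and 0 lower, 2 partners higher and 1 lower, and 4 EF-hand genes higher and 1 lower. Of these, *Anxa8* and the partner *Plat* have lower bounds of 1.82-fold and 1.73-fold only. With 75th percentile scaling 10 EF-hand genes were higher and 10 lower. With 1 array left out, the EF-hand genes called lower were 4 (without Ano1fl/fl replicate 2) to 6. The causes were not tested.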

Other observations

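The S100 proteins are one branch of the EF-hand superfamily, and 44 genes of other branches were listed. Of these, 34 were tested, 11 were higher, 7 lower and 16 not called in the Ctsk-Cre;Ano1fl/fl group, with a median difference of 0.09, where 23.0% of all genes tested were higher and 28.5% lower. With 75th percentile scaling 10 were higher and 10 lower. Without Ano1fl/fl replicate 2, 4 were lower. The largest rise was that of *Rcn3*, a calcium-binding chaperone of the endoplasmic reticulum, from 8.85, 8.72 and 8.52 to 11.78, 11.25 and 11.07 on the log2 scale, a difference of 2.67 (limma adjusted p = 1.37e-04). Its relative *Rcn1* rose by 1.40 (adjusted p = 0.00364) and *Myl9*, a regulatory light chain of smooth muscle and non-muscle myosin, by 1.62 (adjusted p = 0.0025). The largest fall was that of *Tesc*, tescalcin, from 10.13, 10.78 and 10.87 to 9.06, 8.99 and 9.15, a difference of -1.53 (adjusted p = 0.00126), and its dimmer probe gave -1.52. *Pvalb*, parvalbumin, fell by 0.80 (adjusted p = 0.016) and *Cetn2*, a centrin of the centriole, by 0.41 (adjusted p = 0.00701).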
